A study of Homo sapiens with 18 samples.

Results

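A set of 30 genes of glucose uptake, glycolysis, lactate formation and pyruvate oxidation was followed in ECV304 cells treated with interleukin-1β (IL-1β) and aminaphtone. The genes were taken from a list of 33 by a rule on the annotation: a gene entered when a transcript cluster of the array, the set of probes that measures 1 transcript, is annotated with that symbol alone. Each of the 30 genes has 1 such transcript cluster among the 18377 genes with a single-symbol row, and PGAM1, SLC16A1 and SLC16A3 were not analysed here. All 30 passed the filter on dim transcript clusters (mean log2 signal over all arrays above 6.19).

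The data are 18 Human Gene 1.0 ST arrays from Affymetrix, 3 in each of 6 groups. In 3 groups confluent cells received IL-1β at 100 IU/ml together with aminaphtone at 6 µg/ml, for 1, 3 or 6 h. In the other 3 groups they received IL-1β at the same dose with medium in place of aminaphtone, for 1, 3 or 6 h. All groups had been serum-starved before treatment, and no group lacked IL-1β, so a change with time cannot be assigned to IL-1β, to starvation or to time in culture. The study's design text calls the replicates independent without naming separate cultures, so the p-values cover the spread between these samples. IL-1β is a pro-inflammatory cytokine, and aminaphtone is a naphthohydroquinone derivative used in capillary disorders.

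Glycolysis splits glucose into pyruvate in the cytosol. Glucose transporters of the SLC2A family bring the sugar in, hexokinases trap it as glucose 6-phosphate, and phosphofructokinase commits it to breakdown. Pyruvate is either reduced to lactate by lactate dehydrogenase or carried into mitochondria, where the pyruvate dehydrogenase complex turns it into acetyl-CoA. Many of these genes are known targets of the hypoxia-inducible factor HIF-1 and of MYC, and cytokine-stimulated cells often raise glycolysis.

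ECV304 is an established line described by its submitters as having endothelial and epithelial features, and it is generally held to derive from a urinary bladder carcinoma. Of 12 endothelial markers, 6 lay under the filter, namely PECAM1, VWF, TEK, KDR, EMCN and ERG (mean log2 signal 5.30, 6.03, 5.30, 5.45, 4.57 and 5.30). The other 6, CDH5, TIE1, CLDN5, ROBO4, ESAM and ENG, passed it with mean log2 signals from 6.40 (TIE1) to 9.20 (ENG). All 12 epithelial and urothelial markers with a row passed the filter. KRT7, KRT8 and KRT18 had mean log2 signals of 11.36, 12.38 and 11.75, and the other 9, among them EPCAM, CDH1 and the uroplakins, lay from 6.51 to 7.48. IL-1β-alone arrays 1 and 2 at 1 h stood apart, with a correlation across transcript clusters of 0.889 between them, against at least 0.970 within every other group. Array medians ran from 6.93 to 7.06 on the log2 scale. Each group mean rests on 3 arrays, while the spread was estimated jointly over all 18. The 1 h arrays that stand apart therefore also enter the tests at 3 and 6 h.

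Against IL-1β alone, aminaphtone-treated cells had lower signals of hexokinase 2 and enolase 2 at 6 h, and no gene of the 30 passed the threshold at 1 h or at 3 h. The test was limma's moderated test on all 18 arrays with Benjamini-Hochberg adjustment over 15796 transcript clusters, and a gene was called at an adjusted p under 0.05. At 6 h, 2 of 30 were called, both lower, when 0.108% of all transcript clusters were called. For the mean over the 3 times, 3 of 30 were called, all lower (HK2, ENO2 and SLC2A1), when 0.829% of all transcript clusters were called and 0.405% were called lower. That mean includes the 6 h arrays, so it is not separate from the result at 6 h. At 1 h and 3 h 0 of 30 were called (0.0886% and 0.038% of all transcript clusters), while 6 and 1 had an unadjusted p under 0.05, beside 30.8% and 6.5% of all transcript clusters. At 6 h 10 of 30 had an unadjusted p under 0.05, 9 of them lower, beside 3.93% of all transcript clusters. With only the 6 h arrays in the fit, 3 were called at 6 h, SLC2A1 being the third, when 0.443% of all transcript clusters were.

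Groups that do not overlap were also counted. The 30 genes were chosen with earlier results of these data known. Their counts beside the shares of all transcript clusters, above, here and below, are therefore not an independent test. All 3 aminaphtone arrays lay below all 3 IL-1β-alone arrays in 12 of the 30 genes, as they did in 7.25% of all transcript clusters. They lay above in 1 gene, MPC1, and in 8.86% of all transcript clusters. The median log2 difference of the 30 genes was -0.15 at 6 h, beside -0.01 over all transcript clusters. Of the 30, 24 were negative and 6 positive, beside 46.2% positive over all transcript clusters. At 3 h the median of the 30 was 0.01 beside 0.00, with 1 gene entirely above (7.58% of all transcript clusters) and 0 entirely below (4.99%). At 1 h it was 0.00 beside -0.10, with 3 genes entirely above (5.77% of all transcript clusters) and 0 entirely below (7.55%). The mean signals of the epithelial and endothelial markers were read beside this. At 6 h the mean log2 signal of 12 epithelial markers ran from 7.98 to 8.02 with aminaphtone and from 8.06 to 8.08 with IL-1β alone, and that of 12 endothelial markers from 6.45 to 6.62 and from 6.53 to 6.65. At 6 h the epithelial ranges did not overlap and the endothelial ones did, and their part in the result was not tested. In such bulk samples fewer cells of a type and less RNA per cell cannot be told apart.

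**Figure D1:**
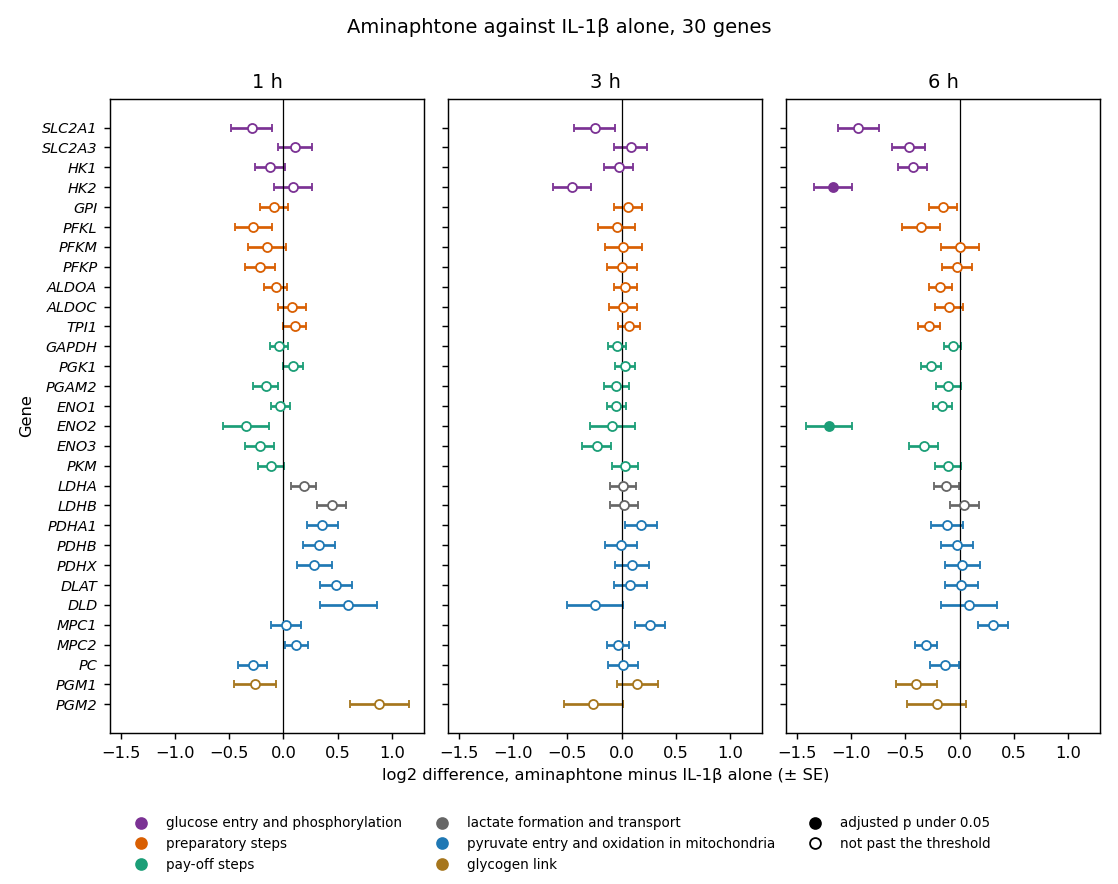
Log2 difference, aminaphtone minus IL-1β alone, of 30 genes at 1, 3 and 6 h (points, with standard errors), coloured by the step each gene serves. Filled points have an adjusted p under 0.05: HK2 (-1.17) and ENO2 (-1.21) at 6 h.

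The 6 h calls depended on single arrays. Both were lost without aminaphtone replicate 1, 2 or 3 at 6 h and without IL-1β-alone replicate 1 or 3 at 6 h, when the count was 0. ENO2 was lost, giving a count of 1, without aminaphtone replicate 1 or 2 at 1 h, aminaphtone replicate 1 at 3 h or IL-1β-alone replicate 3 at 3 h. Without the 1 h arrays altogether, a fit added after the data were seen, the count was 3 (HK2, ENO2 and SLC2A1), when 0.203% of all transcript clusters were called. The count of 3 for the mean over the times became 8 without IL-1β-alone replicate 1 at 1 h. In that fit 53.9% of all transcript clusters were called between treatments at 1 h, which is a different comparison. The shares of all transcript clusters called for the mean, in this and the following fits, are not given here. The count for the mean became 0 without aminaphtone replicate 1 at 1 h, replicate 3 at 3 h or replicate 2 or 3 at 6 h, and without IL-1β-alone replicate 3 at 3 h or replicate 1 or 3 at 6 h. It became 1 without aminaphtone replicate 2 or 3 at 1 h, replicate 1 at 3 h or replicate 1 at 6 h, and without IL-1β-alone replicate 3 at 1 h, replicate 1 or 2 at 3 h or replicate 2 at 6 h.

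At 3 h the smallest unadjusted p-values among the 30 genes were those of HK2, MPC1 and ENO3, and none of these passed. MPC1, a subunit of the mitochondrial pyruvate carrier, had log2 signals of 8.57, 8.46 and 8.37 with aminaphtone, against 7.96, 8.32 and 8.32 with IL-1β alone (difference 0.26, SE 0.137, adjusted p = 0.819). ENO3, the muscle-type enolase, had 6.75, 6.83 and 6.47 with aminaphtone, against 6.940, 6.797 and 7.0005 with IL-1β alone (difference -0.23, SE 0.134, adjusted p = 0.843). The MPC1 groups did not overlap, and the ENO3 groups did.

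Of the 6 roles, glucose entry and phosphorylation had the lowest median log2 difference at 6 h, -0.70 over 4 genes, of which 1 passed. HK2 encodes hexokinase 2, the inducible hexokinase that docks on mitochondria. At 1 h its log2 signal was 7.64, 7.73 and 7.57 with aminaphtone, against 7.42, 7.42 and 7.83 with IL-1β alone. At 3 h it was 8.50, 7.95 and 8.25 with aminaphtone, against 8.98, 8.31 and 8.78 with IL-1β alone. At 6 h it was 8.79, 8.59 and 8.62 with aminaphtone, against 9.84, 9.62 and 10.06 with IL-1β alone. The groups overlapped at 1 h and 3 h, and at 6 h every aminaphtone array was below the lowest array with IL-1β alone. HK2 was 2.25-fold lower with aminaphtone at 6 h (log2 difference -1.17, SE 0.176; 8.67 ± 0.106 against 9.84 ± 0.219, SD, n = 3 each; adjusted p = 0.0133). Leaving out 1 array at a time, that call held in 13 of 18 fits, with a highest adjusted p of 0.117. All its losses were in fits without a 6 h array. Arrays of the other times enter this test only through the shared estimate of spread. For the mean over the 3 times HK2 was 1.43-fold lower (adjusted p = 0.0239, kept in 10 of 18 fits without 1 array). The log2 differences in that mean were 0.09 at 1 h, -0.46 at 3 h and -1.17 at 6 h, so their direction was mixed.

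HK2 also had the largest rise with time among the 30 genes in each arm from 1 to 6 h. With aminaphtone it was 1.5-fold higher at 3 h than at 1 h (adjusted p = 0.0412, kept in 9 of 18 fits without 1 array) and 2.03-fold higher at 6 h than at 1 h (adjusted p = 0.000733). With IL-1β alone it was 2.19-fold higher at 3 h than at 1 h (adjusted p = 0.000471) and 4.85-fold higher at 6 h than at 1 h (log2 difference 2.28, SE 0.176, adjusted p = 2.76e-07). Between 3 and 6 h the log2 difference was 0.43 with aminaphtone (SE 0.176, adjusted p = 0.39) and 1.15 with IL-1β alone (SE 0.176, adjusted p = 0.00515). The test of whether the treatment difference depends on time called 0 of 30 genes (0.038% of all transcript clusters), and 8 had an unadjusted p under 0.05, beside 9.23% of all transcript clusters. Without IL-1β-alone replicate 1 at 1 h it called 6, in a fit that called 53.9% of all transcript clusters between treatments at 1 h. The share of all transcript clusters that the interaction test called in that fit is not given here. With all arrays the test gave HK2 the smallest adjusted p of the 30 genes, 0.274, so the difference between the arms' time courses was not established over all transcript clusters (unadjusted p = 0.000398). The comparison of treatments at 6 h and that of 6 h with 3 h in the IL-1β-alone arm share the 3 IL-1β-alone arrays at 6 h.

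HK1, the hexokinase most tissues express, had log2 signals at 6 h of 8.24, 7.98 and 8.09 with aminaphtone, against 8.74, 8.36 and 8.51 with IL-1β alone. These groups did not overlap, but the difference of -0.43 (SE 0.135) had an adjusted p of 0.722. HK1 passed in no comparison between times in either arm.

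SLC2A1 encodes GLUT1, the basal glucose transporter. At 1 h its log2 signal was 10.25, 10.36 and 10.69 with aminaphtone, against 10.21, 11.03 and 10.94 with IL-1β alone. At 3 h it was 10.74, 10.94 and 10.47 with aminaphtone, against 10.82, 11.06 and 11.02 with IL-1β alone. At 6 h it was 11.03, 10.74 and 10.73 with aminaphtone, against 11.87, 11.62 and 11.81 with IL-1β alone. The groups overlapped at 1 h and 3 h, and at 6 h every aminaphtone array was below every array with IL-1β alone. The 6 h log2 difference was -0.93 (SE 0.189, 1.91-fold, adjusted p = 0.0736), and its adjusted p was 0.0103 with only the 6 h arrays and 0.0105 without the 1 h arrays. Over the 3 times it was 1.41-fold lower with aminaphtone (log2 difference -0.49, SE 0.109, adjusted p = 0.0465), a call kept in 3 of 18 fits without 1 array (highest adjusted p = 0.126). With IL-1β alone SLC2A1 was 2.05-fold higher at 6 h than at 1 h (log2 difference 1.04, SE 0.189, adjusted p = 0.000922), a call kept in all 18 such fits. Between 3 and 6 h with IL-1β alone its log2 difference was 0.80 (SE 0.189, adjusted p = 0.0675).

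SLC2A3 encodes GLUT3, a high-affinity glucose transporter. It fell early in both arms. With aminaphtone its log2 signal was 7.99, 8.19 and 8.29 at 1 h, 6.96, 7.24 and 6.78 at 3 h, and 6.96, 6.95 and 7.12 at 6 h. With IL-1β alone it was 8.004, 7.88 and 8.27 at 1 h, 7.01, 6.84 and 6.87 at 3 h, and 7.54, 7.16 and 7.73 at 6 h. At 3 h against 1 h it was 2.24-fold lower with aminaphtone (adjusted p = 9.83e-05) and 2.21-fold lower with IL-1β alone (adjusted p = 0.000128), and both calls held without any 1 array. At 6 h every aminaphtone array was below every array with IL-1β alone, but the log2 difference of -0.47 (SE 0.153) did not pass (adjusted p = 0.766).

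**Figure D2:**
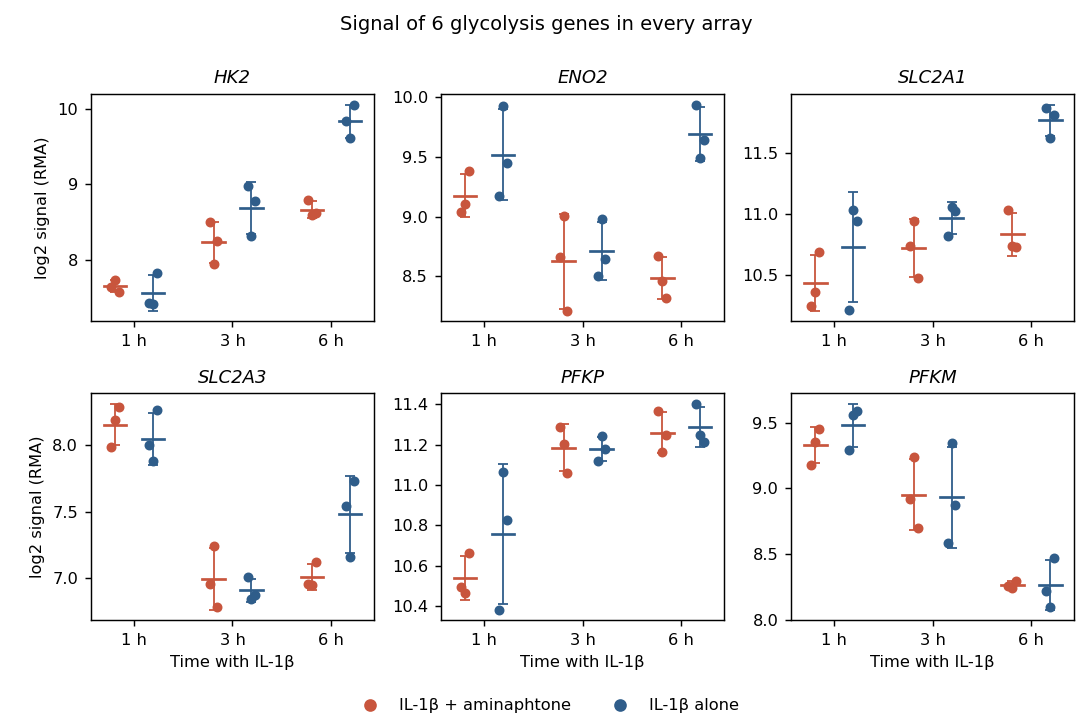
Log2 signal of HK2, ENO2, SLC2A1, SLC2A3, PFKP and PFKM in every array at 1, 3 and 6 h, aminaphtone left of IL-1β alone at each time. Points are arrays, horizontal bars are means and error bars SD (n = 3). At 6 h the aminaphtone arrays lie below those with IL-1β alone in HK2, ENO2, SLC2A1 and SLC2A3, whereas PFKP and PFKM overlap.

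The sequence around the annotated start is shown for HK2, SLC2A1 and ENO2, the genes called lower with aminaphtone for the mean over the times. It was searched for the short core that hypoxia-inducible factors recognise, written ACGTG or GCGTG. Whether such a factor binds in these windows was not tested. The windows come from RefSeq (GRCh38.p14) and run from 250 bases before to 50 after the start. Those of HK2 lie on the plus strand at chr2:74833877-74834176 and, for a second annotated start, at chr2:74834920-74835219. That of ENO2 lies on the plus strand at chr12:6914330-6914629 and that of SLC2A1 on the minus strand at chr1:42958819-42959118. All are written 5′ to 3′ along the gene, with matches to either core on either strand in capitals.
HK2 first start: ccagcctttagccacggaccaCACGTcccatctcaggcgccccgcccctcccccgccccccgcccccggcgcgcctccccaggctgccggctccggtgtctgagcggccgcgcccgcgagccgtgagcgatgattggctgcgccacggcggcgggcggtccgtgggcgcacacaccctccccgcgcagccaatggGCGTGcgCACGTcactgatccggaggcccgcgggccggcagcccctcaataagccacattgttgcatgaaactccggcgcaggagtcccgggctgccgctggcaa
HK2 second start: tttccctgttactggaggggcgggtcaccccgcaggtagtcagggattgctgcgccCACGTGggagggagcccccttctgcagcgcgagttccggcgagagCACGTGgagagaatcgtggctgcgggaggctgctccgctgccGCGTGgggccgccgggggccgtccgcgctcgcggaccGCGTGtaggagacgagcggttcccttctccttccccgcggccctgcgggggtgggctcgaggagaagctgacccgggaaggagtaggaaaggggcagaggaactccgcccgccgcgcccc
ENO2: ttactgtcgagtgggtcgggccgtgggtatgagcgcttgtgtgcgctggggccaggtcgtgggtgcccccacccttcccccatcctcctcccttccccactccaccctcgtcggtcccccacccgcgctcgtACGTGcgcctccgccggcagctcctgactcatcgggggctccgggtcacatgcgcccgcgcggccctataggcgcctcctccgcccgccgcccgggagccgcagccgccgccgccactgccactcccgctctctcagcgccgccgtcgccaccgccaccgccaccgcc
SLC2A1: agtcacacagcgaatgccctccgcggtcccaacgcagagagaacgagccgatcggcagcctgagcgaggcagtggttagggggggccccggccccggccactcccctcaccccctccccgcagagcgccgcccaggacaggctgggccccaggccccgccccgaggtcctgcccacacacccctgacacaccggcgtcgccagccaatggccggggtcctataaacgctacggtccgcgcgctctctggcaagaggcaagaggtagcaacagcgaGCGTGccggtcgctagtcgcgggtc
The HK2 windows hold 3 and 6 matches, and those of ENO2 and SLC2A1 hold 1 each. Of the 6 in the second HK2 window, 4 lie in CACGTG palindromes, the E-box core that MYC binds, which contains ACGTG on both strands and occurs in 7.26% of all windows. Of 29 tested genes with a window, 29 held at least 1 match in some window, compared with 52.4% of all genes in the table. Counted by window, 37 of 58 held one (63.8%), compared with 48.4% of 35116 windows of the same length. These shares take no account of base composition or of the number of starts per gene, and a match is a stretch of letters, not a measured site.

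The preparatory steps from glucose 6-phosphate to triose phosphate are served by 7 of the genes, and 0 of 7 passed at any time between treatments. At 6 h 6 of the 7 had negative differences, with a median log2 difference of -0.15, when 46.2% of all transcript clusters had positive ones. The phosphofructokinase genes PFKP and PFKM differed in direction with time. PFKP, the platelet-type subunit, had log2 signals with aminaphtone of 10.49, 10.46 and 10.66 at 1 h, 11.29, 11.21 and 11.06 at 3 h, and 11.37, 11.17 and 11.25 at 6 h. With IL-1β alone it had 10.38, 11.06 and 10.83 at 1 h, 11.12, 11.24 and 11.18 at 3 h, and 11.40, 11.25 and 11.21 at 6 h. At 6 h it was higher than at 1 h in both arms, 1.65-fold with aminaphtone (log2 difference 0.72, SE 0.139, adjusted p = 0.00177) and 1.44-fold with IL-1β alone (log2 difference 0.53, SE 0.139, adjusted p = 0.0103). With aminaphtone it was already 1.56-fold higher at 3 h than at 1 h (adjusted p = 0.00642), and these 3 calls held without any 1 array.

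PFKM, the muscle-type subunit, was lower at later times. With aminaphtone its log2 signal was 9.18, 9.36 and 9.45 at 1 h, 8.92, 9.24 and 8.70 at 3 h, and 8.26, 8.24 and 8.30 at 6 h. With IL-1β alone it was 9.29, 9.56 and 9.59 at 1 h, 8.58, 9.34 and 8.87 at 3 h, and 8.22, 8.10 and 8.47 at 6 h. At 6 h against 1 h it was 2.09-fold lower with aminaphtone (adjusted p = 0.000466) and 2.32-fold lower with IL-1β alone (adjusted p = 0.000133), calls that held without any 1 array. PFKL, the liver-type subunit, passed in no comparison, with a log2 difference at 6 h of -0.36 between treatments.

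TPI1, triose phosphate isomerase, had log2 signals at 6 h of 10.78, 10.70 and 10.63 with aminaphtone, against 11.07, 10.99 and 10.89 with IL-1β alone. The groups did not overlap, and the difference of -0.28 (SE 0.103) had an adjusted p of 0.947. At 1 h it had 10.54, 10.85 and 10.62 with IL-1β alone, all below that arm's 6 h arrays. With IL-1β alone TPI1 was 1.24-fold higher at 6 h than at 1 h (adjusted p = 0.0334, kept in 14 of 18 fits without 1 array). ALDOA, the main aldolase of most cells, differed between treatments by -0.18 at 6 h on the log2 scale, and its brain-type paralogue ALDOC by -0.10, while GPI, glucose 6-phosphate isomerase, differed by -0.15. None of the 3 passed in any comparison.

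The pay-off steps, in which ATP is made, are covered by 7 genes. At 6 h all 7 had negative differences between treatments, when 46.2% of all transcript clusters had positive ones, and 1 passed, ENO2. ENO2 encodes the neuron-type enolase, and it is also a known hypoxia-inducible gene. Its log2 signal at 1 h was 9.04, 9.11 and 9.38 with aminaphtone, against 9.17, 9.93 and 9.45 with IL-1β alone. At 3 h it was 8.66, 9.002 and 8.21 with aminaphtone, against 8.51, 8.98 and 8.64 with IL-1β alone. At 6 h it was 8.67, 8.46 and 8.32 with aminaphtone, against 9.94, 9.49 and 9.64 with IL-1β alone. The groups overlapped at 1 h and 3 h and did not overlap at 6 h.

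ENO2 was 2.31-fold lower with aminaphtone at 6 h (log2 difference -1.21, SE 0.21; 8.48 ± 0.175 against 9.69 ± 0.227, SD, n = 3 each; adjusted p = 0.0355), a call kept in 9 of 18 fits without 1 array (highest adjusted p = 0.308). With IL-1β alone its course had a trough: 1.75-fold lower at 3 h than at 1 h (adjusted p = 0.0179, kept in 15 of 18 fits without 1 array) and 1.97-fold higher at 6 h than at 3 h (log2 difference 0.98, SE 0.21, adjusted p = 0.0467, kept in 4 of 18 fits without 1 array). With aminaphtone the log2 difference between 3 and 6 h was -0.14, and at 6 h ENO2 was 1.61-fold lower than at 1 h (adjusted p = 0.0308, kept in 13 of 18 fits without 1 array). For the mean over the 3 times it was 1.46-fold lower with aminaphtone (adjusted p = 0.0469, kept in 3 of 18 such fits). The test of treatment by time had an adjusted p of 0.521 for ENO2 (unadjusted p = 0.0039).

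The other genes of these steps had smaller differences at 6 h than ENO2. ENO1, the widely expressed enolase, differed by -0.16 at 6 h and the muscle-type ENO3 by -0.33. Neither passed, but in each gene the groups did not overlap. For the mean over the 3 times ENO3 differed by -0.26 (adjusted p = 0.128). PGK1, phosphoglycerate kinase, had log2 signals at 6 h of 11.69, 11.54 and 11.56 with aminaphtone, against 11.96, 11.84 and 11.78 with IL-1β alone. Its groups did not overlap, and the difference of -0.26 (SE 0.0931) had an adjusted p of 0.935. GAPDH, often used as a reference transcript, stayed between 13.58 and 13.74 on the log2 scale over all 18 arrays. PKM, which encodes the pyruvate kinase of most dividing cells, differed by -0.11 at 6 h, and PGAM2, the muscle-type phosphoglycerate mutase, by -0.10.

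Lactate formation was represented by the lactate dehydrogenase subunits. LDHA, the subunit that favours lactate formation, had log2 signals at 6 h of 12.76, 12.72 and 12.82 with aminaphtone, against 12.98, 12.76 and 12.94 with IL-1β alone, groups that overlapped. At 1 h it had 12.74, 12.26 and 12.70 with IL-1β alone, below all of that arm's 6 h arrays. With IL-1β alone it was 1.25-fold higher at 6 h than at 1 h (adjusted p = 0.0493, kept in 3 of 18 fits without 1 array). LDHB, the subunit more common in oxidative tissue, had signals with aminaphtone of 12.82, 12.67 and 12.53 at 1 h and 12.11, 12.13 and 12.26 at 6 h, a 1.42-fold fall (log2 difference -0.50, SE 0.132, adjusted p = 0.0135, kept in 15 of 18 fits without 1 array). With IL-1β alone its log2 difference between 1 and 6 h was -0.10.

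Pyruvate entry and oxidation in mitochondria involve 8 of the genes. The mitochondrial pyruvate carrier is made of MPC1 and MPC2, and these had differences of opposite sign at 6 h. MPC1 had log2 signals of 8.28, 8.28 and 8.36 with aminaphtone, against 8.17, 7.75 and 8.08 with IL-1β alone. MPC2 had 11.20, 11.05 and 11.06 with aminaphtone, against 11.43, 11.38 and 11.42 with IL-1β alone. In each gene the groups did not overlap, and the differences of 0.31 (SE 0.137, adjusted p = 1) and -0.31 (SE 0.103, adjusted p = 0.787) did not pass. At 1 h MPC2 had 11.84, 11.83 and 11.82 with aminaphtone, against 11.67, 11.72 and 11.75 with IL-1β alone. With time MPC2 was lower at 6 h than at 1 h in both arms, 1.66-fold with aminaphtone (adjusted p = 0.000144, kept without any 1 array) and 1.23-fold with IL-1β alone (adjusted p = 0.039, kept in 7 of 18 fits without 1 array). With IL-1β alone MPC1 had 8.48, 8.30 and 8.50 at 1 h, above all of that arm's 6 h arrays. MPC1 was 1.34-fold lower at 6 h than at 1 h with IL-1β alone (adjusted p = 0.0289, kept in 15 of 18 fits without 1 array).

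PDHA1 and PDHB encode the subunits of pyruvate dehydrogenase itself, DLAT the acetyltransferase core, DLD the flavin subunit and PDHX the protein that anchors it. At 6 h these 5 differed between treatments by -0.12 to 0.09 on the log2 scale. PDHB had log2 signals with aminaphtone of 9.56, 9.58 and 9.47 at 1 h, 9.15, 9.14 and 8.87 at 3 h, and 9.07, 8.76 and 9.001 at 6 h, and it was 1.51-fold lower at 6 h than at 1 h (adjusted p = 0.00984, kept in 17 of 18 fits without 1 array). At 3 h it was 1.4-fold lower than at 1 h (adjusted p = 0.0457, kept in 5 of 18 such fits). With IL-1β alone its log2 difference from the 1 h arrays was -0.14 at 3 h and -0.24 at 6 h, and neither passed. PC, pyruvate carboxylase, which makes oxaloacetate from pyruvate, passed in no comparison.

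At 1 h the pyruvate dehydrogenase genes, LDHB and PGM2 had their largest differences between treatments, all upward. DLAT had log2 signals of 9.81, 9.62 and 9.45 with aminaphtone, against 9.47, 8.84 and 9.12 with IL-1β alone (difference 0.48, SE 0.151, adjusted p = 0.139). DLD had 9.81, 9.55 and 9.27 with aminaphtone, against 9.67, 8.63 and 8.52 with IL-1β alone (difference 0.60, SE 0.261, adjusted p = 0.15). Outside that complex PGM2 and LDHB had the largest differences of the 30 genes at 1 h. PGM2, a phosphopentomutase related to phosphoglucomutase, had 9.87, 9.86 and 9.53 with aminaphtone, against 9.65, 8.17 and 8.79 with IL-1β alone (difference 0.89, SE 0.273, adjusted p = 0.139). LDHB had 12.82, 12.67 and 12.53 with aminaphtone, against 12.54, 12.01 and 12.13 with IL-1β alone (difference 0.45, SE 0.132, adjusted p = 0.139). In all 4 genes IL-1β-alone replicate 1 lay inside the aminaphtone range, and replicates 2 and 3 lay below it.

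These 1 h differences moved with the arrays that stand apart. On the first component of the residuals, which holds 59.9% of their variance, the aminaphtone arrays at 1 h scored 12.6, -8.13 and -4.48 and the IL-1β-alone arrays 46.6, -42.5 and -4.09. Its part in the result was not tested. Treated and control arrays of equal replicate number deviated together at 1 h, and with the number as a block LDHB, DLAT and PGM2 were called higher with aminaphtone (adjusted p = 0.0369, 0.0366 and 0.041), when 15.6% of all transcript clusters were called. Without IL-1β-alone replicate 1 at 1 h, 12 of the 30 were called, 7 higher and 5 lower, when 53.9% of all transcript clusters were called. Both shares of the 30 lie below the background.

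**Figure D3:**
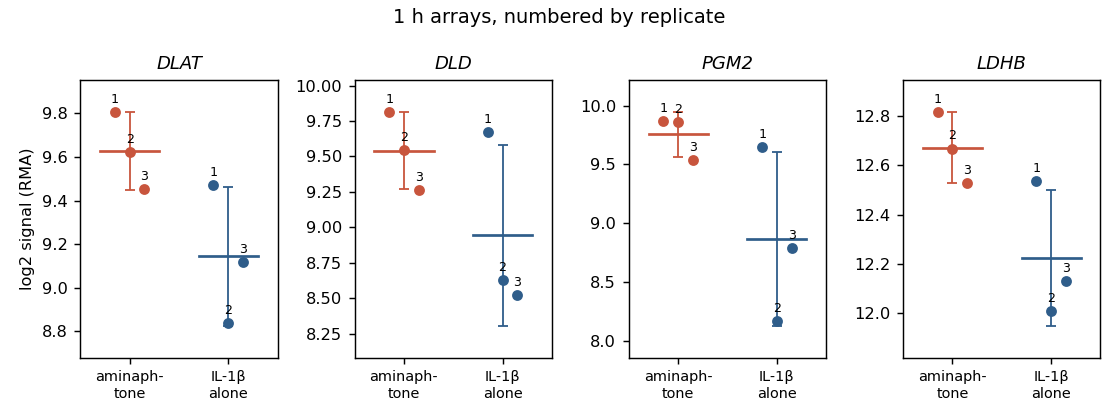
Log2 signal of DLAT, DLD, PGM2 and LDHB in the 1 h arrays, each point labelled with its replicate number, aminaphtone left of IL-1β alone. Horizontal bars are means and error bars SD (n = 3). IL-1β-alone replicate 1 is the highest of its group in each of the 4 genes.

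The phosphoglucomutases link glycolysis to glycogen and to the pentoses. PGM1, which interconverts glucose 1-phosphate and glucose 6-phosphate, differed by -0.40 between treatments at 6 h (SE 0.192) and did not pass. With IL-1β alone it was 1.54-fold lower at 3 h than at 1 h (adjusted p = 0.042, kept in 6 of 18 fits without 1 array), with signals of 8.57, 9.38 and 9.04 at 3 h, against 9.29, 9.96 and 9.62 at 1 h, groups that overlapped. PGM2 was 1.72-fold higher at 6 h than at 1 h with IL-1β alone (adjusted p = 0.0442, kept in 5 of 18 fits without 1 array). Its signals in that arm were 9.47, 9.75 and 9.72 at 6 h, against 9.65, 8.17 and 8.79 at 1 h, groups that also overlapped.

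Counted over all 30 genes, calls with time fell in both directions. With aminaphtone, 4 genes were called between 1 and 3 h, 2 higher at 3 h and 2 lower, when 10.5% of all transcript clusters were called (5.09% higher, 5.45% lower). From 3 to 6 h 0 were called (0.266% of all transcript clusters), and 3 of 30 had an unadjusted p under 0.05, beside 9.82% of all transcript clusters. These were MPC2 (log2 difference -0.47, adjusted p = 0.0721), PFKM (-0.69, adjusted p = 0.119) and HK2. Between 1 and 6 h 8 were called, 2 higher at 6 h and 6 lower, when 16.7% of all transcript clusters were called (6.01% higher, 10.7% lower).

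With IL-1β alone, 5 genes were called between 1 and 3 h, 1 higher at 3 h and 4 lower, when 12.8% of all transcript clusters were called (4.81% higher, 7.98% lower). The lower ones were SLC2A3, PFKM, ENO2 and PGM1. From 3 to 6 h 2 were called, both higher at 6 h, HK2 and ENO2 (0.513% of all transcript clusters called, 0.348% higher). Between 1 and 6 h 10 were called, 6 higher at 6 h and 4 lower, when 26.5% of all transcript clusters were called (11.3% higher, 15.2% lower). Between 3 and 6 h with IL-1β alone, 7 of 30 genes had all later arrays above all earlier ones, beside 10.8% of all transcript clusters. Those 7 were SLC2A1, SLC2A3, HK1, HK2, TPI1, PGK1 and ENO2. With aminaphtone 2 did, HK2 and LDHA, beside 6.67% of all transcript clusters. All later arrays lay below all earlier ones in 5 genes with aminaphtone (PFKM, ENO1, PDHA1, MPC1 and MPC2), beside 13.6% of all transcript clusters, and in 1 gene with IL-1β alone (PFKM), beside 7.87%. The median log2 difference between 3 and 6 h was -0.10 with aminaphtone and 0.08 with IL-1β alone, beside 0.00 over all transcript clusters in both arms.

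Single arrays changed several of these counts by over 1.5 times. The refitted counts show how far the calls moved and are not set against all transcript clusters. The 5 genes called with IL-1β alone between 1 and 3 h became 10 without IL-1β-alone replicate 1 at 1 h, 3 without replicate 2 or 3 at 1 h, and 2 without replicate 1 or 3 at 3 h. They became 3 without IL-1β-alone replicate 2 at 6 h, any 1 of the aminaphtone replicates at 1 h, aminaphtone replicate 1 at 3 h, or aminaphtone replicate 2 or 3 at 6 h. The 10 genes between 1 and 6 h became 6 without IL-1β-alone replicate 3 at 1 h or replicate 1 or 3 at 6 h, and 5 without replicate 2 at 6 h. The 8 genes with aminaphtone between 1 and 6 h became 5 without aminaphtone replicate 2 at 6 h. The 2 genes between 3 and 6 h with IL-1β alone became 1, HK2, in every fit without 1 array except those without IL-1β-alone replicate 1 or 2 at 1 h, IL-1β-alone replicate 1 at 3 h, or aminaphtone replicate 2 or 3 at 3 h. The 4 genes with aminaphtone between 1 and 3 h became 2 without any 1 aminaphtone replicate at 1 h, aminaphtone replicate 1 or 3 at 3 h or 2 or 3 at 6 h, or IL-1β-alone replicate 3 at 3 h or 1 at 6 h. The 0 genes with aminaphtone between 3 and 6 h became 1 without IL-1β-alone replicate 1 or 2 at 1 h or replicate 1 at 3 h, and 2 without its replicate 2 at 3 h.

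**Figure D4:**
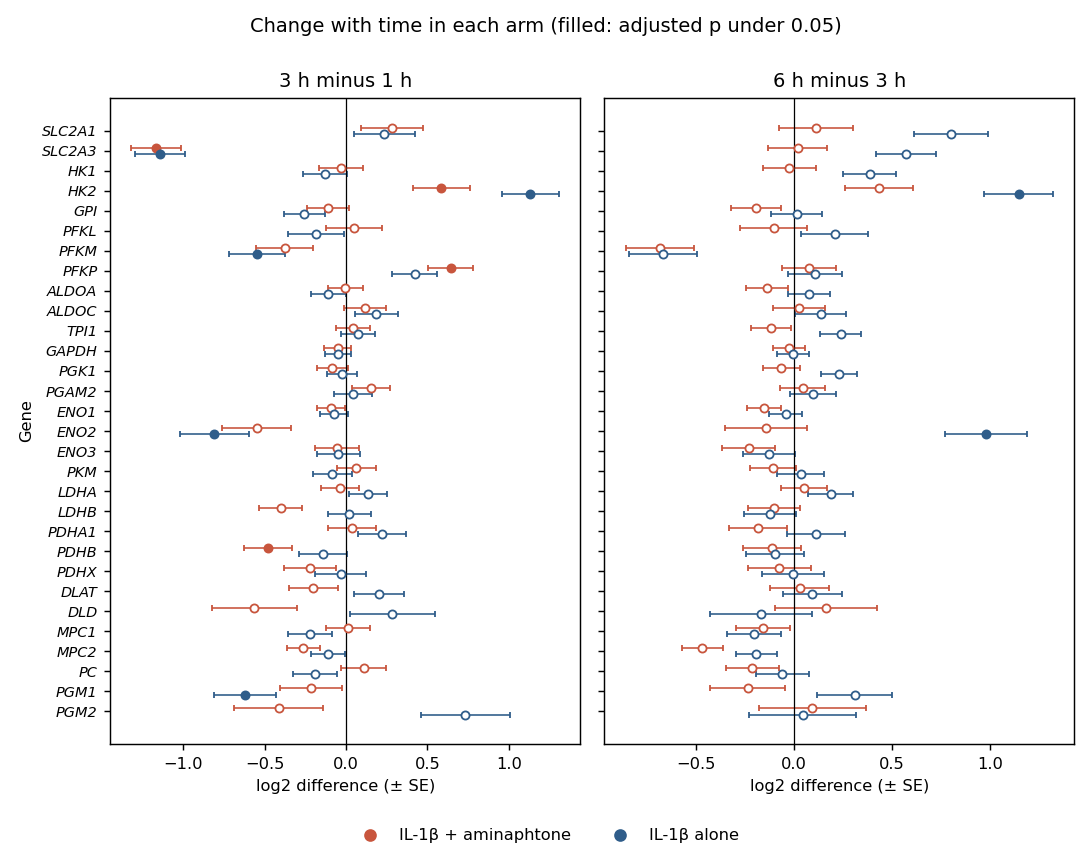
Log2 difference of the 30 genes between 3 and 1 h (left) and between 6 and 3 h (right) in cells with aminaphtone (red) and with IL-1β alone (blue), with standard errors. Filled points have an adjusted p under 0.05. Between 3 and 6 h HK2 (1.15) and ENO2 (0.98) are filled with IL-1β alone and no gene is filled with aminaphtone.

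Neighbouring pathways were read from lists of other genes. These lists, here and below, were chosen with earlier results of these data known. Their counts beside the shares of all transcript clusters are therefore not an independent test. Of 9 measured regulators of phosphofructokinase and pyruvate dehydrogenase, 2 were lower with aminaphtone at 6 h and 0 higher, when 0.108% of all transcript clusters were called lower. PFKFB4, which makes an activator of phosphofructokinase, had log2 signals of 7.42, 7.27 and 7.17 with aminaphtone, against 8.85, 8.44 and 8.83 with IL-1β alone (2.67-fold lower, adjusted p = 0.000851). PDK1, a kinase that switches pyruvate dehydrogenase off, had 8.64, 8.73 and 8.72 with aminaphtone, against 9.94, 9.65 and 10.23 with IL-1β alone (2.37-fold lower, adjusted p = 0.0223). With IL-1β alone both genes were higher at 6 h than at 3 h (adjusted p = 6.92e-05 and 0.0205). That comparison shares the IL-1β-alone arrays at 6 h with the one between treatments, so it is not a separate result. PDK2, a related kinase, was lower at 6 h than at 1 h in both arms, 3.59-fold with aminaphtone (adjusted p = 8.24e-05) and 4.86-fold with IL-1β alone (adjusted p = 9.71e-06).

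Of 14 measured HIF targets outside glycolysis, 2 were lower with aminaphtone at 6 h and 0 higher (0.108% of all transcript clusters called lower), with a median log2 difference of -0.54 beside -0.01 over all transcript clusters. These were BNIP3, a mitophagy receptor, and HILPDA, a lipid droplet protein (2.54-fold and 2.09-fold lower, adjusted p = 0.000159 and 0.019). HIF1A, the oxygen-regulated subunit of HIF-1, had log2 signals at 6 h of 12.02, 12.47 and 12.56 with aminaphtone. With IL-1β alone it had 12.33, 12.14 and 12.60 (difference -0.01, SE 0.229). At 6 h MYC differed by -0.03 (SE 0.104), and neither gene was called between treatments. With time both were called. HIF1A was 1.96-fold higher at 6 h than at 1 h with IL-1β alone (adjusted p = 0.00542). With aminaphtone that rise was 1.5-fold and was not called (adjusted p = 0.0956). MYC was 1.61-fold lower at 6 h than at 1 h with IL-1β alone (adjusted p = 0.000246). With aminaphtone it was 1.49-fold lower (adjusted p = 0.00105). These are transcript signals, and protein was not measured. At 6 h 0 genes passed between treatments among 15 other isozymes of the same steps, 2 genes of gluconeogenesis, 9 of glycogen metabolism, 7 of the pentose phosphate pathway, 14 of the citric acid cycle, 9 of the redox shuttles and 9 of the HIF pathway with MYC.

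With time, the pentose phosphate genes were lower at 6 h than at 1 h in 2 of 7 with aminaphtone and in 4 of 7 with IL-1β alone, where 2 were higher. Over all transcript clusters 10.7% were called lower with aminaphtone, and 15.2% lower and 11.3% higher with IL-1β alone. TKT, transketolase, was 1.86-fold lower with aminaphtone (adjusted p = 0.000236) and 1.92-fold lower with IL-1β alone (adjusted p = 0.000126). Of 14 citric acid cycle genes, 2 were lower at 6 h than at 1 h with aminaphtone, and 3 were lower and 1 higher with IL-1β alone, counts to be read against the same shares of all transcript clusters. The higher one, IDH3A, a subunit of the NAD-dependent isocitrate dehydrogenase, was 2.48-fold higher at 6 h than at 1 h (adjusted p = 0.00319). In glycogen metabolism PPP1R3C, a subunit that directs a phosphatase to glycogen, was higher at 6 h than at 1 h in both arms, 1.73-fold with aminaphtone (adjusted p = 0.0398) and 3.48-fold with IL-1β alone (adjusted p = 0.000111).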

How the data were processed

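Per the labels and the submitters' processing notes, the authors made log2 signals per transcript cluster with RMA (background correction, quantile normalization, summary) in Affymetrix Expression Console. Versions, the arrays normalized together and the genome build are not given in the sources used here. Probe genes came from GEO's platform annotation: 19310 of 28869 transcript clusters carry a single symbol.

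Annotated transcript clusters above the 25th percentile of mean log2 signal (6.19) were tested, 15796 in all, with limma 3.58.1 (R 4.3.3). The model had 1 mean per group over 18 arrays, 12 residual and 4.81 prior degrees of freedom, two-sided tests and a threshold of 0.05 on adjusted p. The calculation was tested on simulated data. Genes and lists were chosen with earlier results of these data known. Full values were given for genes called in a comparison whose groups do not overlap, up to 12 a comparison by adjusted p, and, where fewer than 3 were called, for the 3 with the smallest p. Genes of other lists were named by smallest p, up to 4 a list and comparison.

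Deviations from group means of equal replicate number correlated at 0.746, 0.411 and 0.322 between treatments at 1 h and at 0.313, 0.359 and 0.258 between the 3 h and 1 h arrays with IL-1β alone, and these numbers were taken as pairs on that basis alone. Alternatives changed the filter, the arrays in the fit, array centring, the variance prior, the replicate block and the gene summary, and left out each array in turn. Leaving out an array of a group not compared changes only the shared estimate of spread. Counts of calls kept over all 18 such fits include these milder ones.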

Additional observations from a re-analysis of the deposited data

Results flagged for a closer look

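The treatment difference of 2 genes outside the 30, both in neighbouring lists, depended on time by limma's test of the interaction over all transcript clusters, in which 0.038% were called. BNIP3 had an adjusted p of 0.00457, with log2 differences between aminaphtone and IL-1β alone of 0.15 at 1 h, -0.16 at 3 h and -1.34 at 6 h. PFKFB4 had an adjusted p of 0.0248, with differences of -0.08, 0.06 and -1.42 at the same times. Of the 30 genes, 0 passed this test and 8 had an unadjusted p under 0.05, beside 9.23% of all transcript clusters.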

How the results depend on the processing

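The 34 gene comparisons called were each repeated under the alternatives, which gave 865 results: 659 kept the call, 206 lost it and 0 reversed direction. Many of these could not reverse. A change of filter, variance prior or balanced replicate block, or of arrays outside the groups compared, leaves the log2 difference as it was. At 1 h between treatments the count of 0 became 3 with a replicate block within each time and 3 without both of the 1 h control arrays 1 and 2, a fit chosen after seeing the data that leaves 1 array, assumed to vary like the other groups. With IL-1β alone between 1 and 3 h the count of 5 became 2 when the fit held those 6 arrays alone, 3 with each array centred on its median and 2 without both of those arrays. Between 3 and 6 h the count of 2 became 1 with no filter, 1 with arrays centred and 1 with a trended, robust variance. Between 1 and 6 h the count of 10 became 3 when the fit held those arrays alone. Leaving out 1 array at a time, the counts between treatments ranged from 0 to 12 at 1 h, from 0 to 3 at 6 h, from 0 to 8 for the mean over times and from 0 to 6 for the interaction, the highest values at 1 h, for the mean and for the interaction being those without IL-1β-alone replicate 1 at 1 h. With IL-1β alone they ranged from 2 to 10 (1 to 3 h), 1 to 3 (3 to 6 h) and 5 to 12 (1 to 6 h). With aminaphtone they ranged from 2 to 6, 0 to 2 and 5 to 10 for the same intervals. These ranges are not set against all transcript clusters, whose calls also change between fits. The replicate block left the called genes between 1 and 3 h with IL-1β alone as they were, 5 of 5. At 3 h and 6 h between treatments arrays share only a number, with correlations of -0.106, 0.519 and -0.0106 and of 0.456, -0.0862 and 0.711, and the block gave counts of 0 and 3.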
